A study of Drosophila melanogaster with 48 samples.

Results

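Apoptosis regulators and caspases were described in the developing wing of Drosophila melanogaster. The genes were 10 regulators and effectors of apoptosis: the death activators rpr, hid, grim and skl, the caspases Dronc, Drice and Dcp-1, the caspase inhibitor Diap1, and the Bcl-2 family genes Buffy and Debcl. Members were all probe sets annotated with these symbols, read over all 12 groups of arrays. Of the 10 genes, 6 had a named probe set, 1 each (grim, skl, Dronc, Dcp-1, Buffy and Debcl), among 18769 probe sets in all. The genes rpr, hid, Drice and Diap1 were not analysed here.

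In flies, apoptosis is held back by inhibitor of apoptosis proteins, which bind caspases and keep them inactive. The proteins of rpr, hid, grim and skl, which lie in the order hid, grim, rpr, skl on chromosome arm 3L (RefSeq genes, Release 6 assembly), bind these inhibitors and so release the caspases. Dronc is the initiator caspase, which is activated on the adaptor Dark and then cleaves effector caspases such as Dcp-1 and Drice. Buffy and Debcl are the Bcl-2 family members of the fly, of which Debcl is described as promoting death and Buffy mainly as opposing it. Transcription of the death activators is a main point of control in this pathway, whereas caspases are largely controlled after translation, so transcript levels do not measure how many cells die.

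The study compared wings made to produce Ubx, the Hox protein under which a haltere forms in place of a wing, with wings producing the green fluorescent protein eGFP. Ubx animals had the genotype w; UAS-UbxIa / + with nabGal4NP3537 / Tub-Gal80ts, and eGFP animals carried UAS-eGFP in place of UAS-UbxIa, so both lines shared the driver inserted in nab and the temperature-sensitive repressor. Per the labels, the transgene was on after 16 h at 29 °C and off in animals kept at 19 °C, and 29 °C groups therefore differ from 19 °C groups in temperature as well. Tissue was taken as wing discs of wandering larvae, as prepupal wings (aged 6 h from puparium formation where kept at 29 °C, and 12.5 h where kept at 19 °C) and as pupal wings (aged 16 h where kept at 29 °C, and 33.5 h where kept at 19 °C). Each of the 12 groups (2 lines, 2 temperatures, 3 stages) held 4 biological replicates, and each sample pooled wings of about 15 to 20 animals. The transgene is made only where the nab driver is active, while whole dissected discs or wings were measured.

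Values are the deposited log2 array values, and array medians ran from 4.19 to 4.78. The 6 sets of 8 arrays that share a stage and temperature appear to have been normalised separately: value distributions differed by at most 0.135 within a set and by at least 0.243 between sets. Ubx and eGFP arrays of a comparison lie in the same set, whereas an effect of stage or temperature and one of the array set cannot be told apart. The lowest correlation between replicate arrays, across probe sets, was 0.995. All of 8 wing marker genes measured lay above the array medians in every group. The driver locus nab was 0.71, 1.72 and 0.93 higher in Ubx than in eGFP larval, prepupal and pupal tissue at 29 °C (adjusted p = 3.01e-09, 8.5e-22 and 4.71e-13), against differences of 0.08, -0.01 and 0.03 at 19 °C, and Ubx itself was not analysed here.

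With the transgene on, different apoptosis genes were called between the lines at each stage. For Dronc and grim, a change of the line difference between successive stages was not called (adjusted p of 0.251 to 0.94). In larval discs Dronc was slightly higher with Ubx, in a call that rested on few arrays. In prepupal wings the effector caspase gene Dcp-1 was lower and the Bcl-2 family gene Debcl was higher. In pupal wings Buffy, skl and, by a small margin, grim were lower. A gene was called at an adjusted p under 0.05, with limma over all probe sets and Benjamini-Hochberg adjustment, and p-values here measure the spread between the 4 samples of a group, pooled over all 12 groups, which may be technical in part.

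At 29 °C, 1 of 6 genes was called in larvae, higher, where 2.77% of all probe sets were called (1.39% higher and 1.39% lower). In prepupae 2 of 6 were called, 1 in each direction, where 14.2% of all probe sets were (8.03% higher and 6.21% lower). In pupae 3 of 6 were called, all lower, where 8.89% were (4.36% higher and 4.53% lower). The median difference, Ubx minus eGFP, of the 6 genes was 0.01 in larvae, 0.03 in prepupae and -0.14 in pupae, beside -0.0029, -0.0055 and 0.02 over all probe sets. With the transgene off at 19 °C, 1 gene, Buffy in prepupae, was called, higher (3.67% of probe sets called, 1.57% higher). No gene was called at 19 °C in larvae (1.41% of probe sets) or in pupae (1.99%), and at an unadjusted p under 0.05 there was 1 at each of these stages, Buffy both times.

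**Figure D1:**
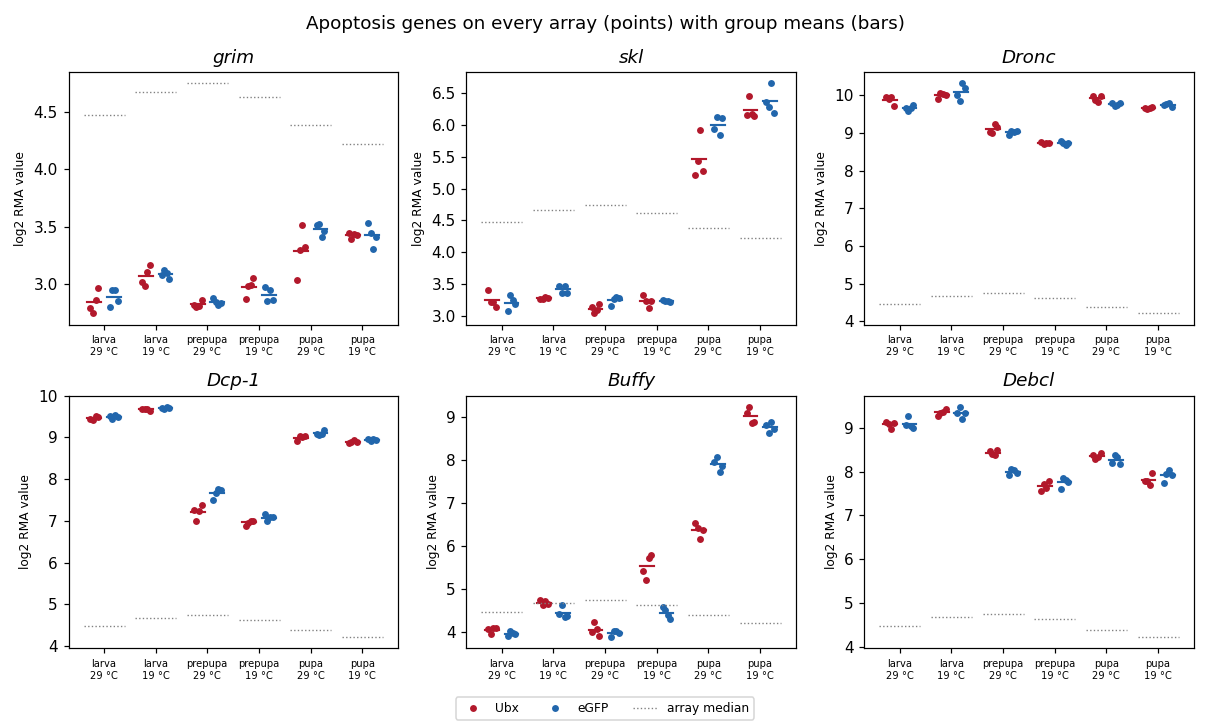
Log2 values of 6 apoptosis genes on every array (points), by stage and temperature, with Ubx left of eGFP, a bar at each group mean and a dotted line at the median of the arrays. Buffy and skl lie highest in pupae, Dronc and Dcp-1 lowest in prepupae, Debcl lowest in prepupae at 19 °C, and grim lies below the array medians throughout.

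Of the death activators, grim had low values in every group. Its group means minus the array medians were -1.91 to -0.79, and the means ran from 2.83 ± 0.03 in Ubx prepupae at 29 °C to 3.48 ± 0.05 in eGFP pupae at 29 °C (SD, n = 4). No detection calls were used here, so grim was not shown to be above background at any stage. Each neighbouring pair among its 12 group means overlapped on single arrays.

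In pupae at 29 °C, grim measured 3.04, 3.30, 3.51 and 3.32 on the 4 Ubx arrays, against 3.52, 3.53, 3.41 and 3.46 on the 4 eGFP arrays. The ranges overlapped, since Ubx replicate 3 lay within the eGFP range. The difference was -0.19 (SE 0.06, adjusted p = 0.0448). The call did not survive the omission of Ubx replicate 1, 2 or 4 (adjusted p of 0.365, 0.0687 and 0.0653) or of eGFP replicate 1, 2 or 4 (0.0939, 0.129 and 0.0713), and with Ubx replicate 1 omitted the difference was -0.10.

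The other death activator measured, skl, moved from below the array medians in larvae and prepupae to above them in pupae. Its means stayed between 3.11 and 3.42 in all 8 larval and prepupal groups, -1.62 to -1.22 relative to the medians. In pupae they were 5.46 ± 0.32 with Ubx and 6.01 ± 0.14 with eGFP at 29 °C, and 6.23 ± 0.15 with Ubx and 6.37 ± 0.20 with eGFP at 19 °C (SD, n = 4). No array of a pupal group came near the larval or prepupal ranges, and the gap between the highest larval and the lowest pupal group mean was 2.05.

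Among pupae at 29 °C, skl had 5.22, 5.44, 5.92 and 5.29 on the Ubx arrays, against 5.94, 6.13, 5.84 and 6.12 on the eGFP arrays. The Ubx arrays other than replicate 3 were below all eGFP arrays, and replicate 3 fell inside the eGFP range. The 4 Ubx arrays had an SD of 0.32, against 0.14 in the eGFP group, while the fit uses the pooled spread. The difference was -0.54 (SE 0.09, adjusted p = 4.44e-05), a fold of 0.687, and it stayed called with each array left out in turn (-0.69 to -0.46). At 19 °C the pupal lines differed by -0.14 (95% interval -0.33 to 0.05, adjusted p = 0.713). The test of the change of the difference between temperatures gave -0.40 (adjusted p = 0.0985). With each of 16 arrays left out in turn, its adjusted p ran from 0.00119 to 0.275, and it reached 0.453 under the other settings. It was called on 2 omissions, of Ubx replicate 3 at 29 °C (difference -0.55, adjusted p = 0.00119) and of eGFP replicate 3 at 19 °C (difference -0.50, adjusted p = 0.0209). With pupal arrays at 29 °C alone, skl had an adjusted p = 0.0553.

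Of the caspases, the initiator gene Dronc differed between the lines by at most 0.23 in any stage and temperature. Its group means ran from 8.74 ± 0.04 in eGFP prepupae at 19 °C to 10.1 ± 0.21 in eGFP larvae at 19 °C (SD, n = 4), all at least 4.10 above the array medians. The 4 prepupal groups were the lowest, and they were separated from the next group by 0.55 with no overlap. By mean percentile within arrays, however, Ubx prepupae at 29 °C (87.93) and eGFP larvae at 29 °C (87.85) lay close together. The larval and pupal groups overlapped one another from neighbour to neighbour.

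In larvae at 29 °C, Dronc had 9.96, 9.91, 9.97 and 9.72 on the Ubx arrays, against 9.66, 9.58, 9.66 and 9.74 on the eGFP arrays. Ubx replicate 4 and eGFP replicate 4 made the ranges overlap, and none of the 6 genes separated the larval lines at 29 °C (8.85% of all probe sets did). Dronc was higher by 0.23 (SE 0.06, adjusted p = 0.0395). Omitting Ubx replicate 1, 2 or 3 (adjusted p of 0.149, 0.109 and 0.177) or eGFP replicate 1, 2 or 3 (0.0837, 0.161 and 0.0884) ended the call, as did fitting the larval 29 °C arrays alone (0.143). The difference at 19 °C was -0.09 (95% interval -0.22 to 0.04), and the change between temperatures, 0.32, was not called (adjusted p = 0.148). With each of 16 arrays left out in turn, its adjusted p ran from 0.00538 to 0.556. It was called on 2 of these omissions, of eGFP replicate 2 at 19 °C (0.00538) and of Ubx replicate 4 at 29 °C (0.0292).

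In prepupae and pupae at 29 °C, Dronc differed by 0.09 (95% interval -0.03 to 0.22, adjusted p = 0.412) and 0.15 (0.02 to 0.28, adjusted p = 0.151), and neither was called. The pupal values were 10.0, 9.88, 9.82 and 9.98 with Ubx and 9.80, 9.73, 9.75 and 9.80 with eGFP, and these ranges did not overlap, as for 11.7% of all probe sets.

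The effector caspase gene Dcp-1 had a clear low in prepupae. Its group means ran from 6.96 ± 0.05 in Ubx prepupae at 19 °C to 9.70 ± 0.02 in eGFP larvae at 19 °C (SD, n = 4). The highest prepupal mean, that of eGFP at 29 °C, lay 1.23 below the lowest pupal mean, and all pupal means lay below all larval ones without overlap. By mean percentile within arrays this last order did not hold, with 86.07 to 87.51 in pupal and 86.02 to 86.39 in larval groups.

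In prepupae at 29 °C, Dcp-1 measured 7.26, 6.99, 7.25 and 7.37 with Ubx, against 7.49, 7.67, 7.77 and 7.75 with eGFP. All 4 Ubx arrays were below all 4 eGFP arrays, a separation that 16.1% of all probe sets showed in one direction or the other. Dcp-1 was lower by -0.45 (SE 0.05, adjusted p = 1.07e-08), a fold of 0.73, and this stayed called with each array left out in turn (-0.51 to -0.38). The SD was 0.16 with Ubx and 0.12 with eGFP, while the fit uses the pooled spread, 0.07 over the groups. Under the other settings the adjusted p of this difference reached 0.00704. At 19 °C the values were 6.89, 6.95, 7.01 and 7.0 with Ubx and 7.16, 7.0, 7.08 and 7.08 with eGFP, a difference of -0.12 (95% interval -0.23 to -0.01, adjusted p = 0.286) with ranges that overlapped. The change of the difference between temperatures was -0.33 (adjusted p = 0.00233), and with prepupal arrays alone it had an adjusted p = 0.0848.

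At the other stages Dcp-1 differed less between the lines. In larvae at 29 °C it differed by -0.03 (95% interval -0.14 to 0.08, adjusted p = 0.934). In pupae it had 8.91, 9.04, 9.01 and 9.04 with Ubx, against 9.08, 9.07, 9.08 and 9.17 with eGFP, a difference of -0.10 (95% interval -0.21 to 0.01, adjusted p = 0.284). The pupal ranges did not overlap, although the difference was not called.

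Of the Bcl-2 family, Buffy had the widest range of group means among the 6 genes, 5.05. It ran from 3.96 ± 0.05 in eGFP larvae at 29 °C to 9.01 ± 0.18 in Ubx pupae at 19 °C (SD, n = 4). The larval and prepupal means lay -0.78 to 0.89 relative to the array medians, and the 4 pupal means lay 1.96 to 4.79 above them. The Ubx pupae at 29 °C stood apart from the other 3 pupal groups, 1.52 below the next, with no overlap.

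In pupae at 29 °C, Buffy had 6.53, 6.42, 6.17 and 6.37 on the Ubx arrays, against 7.94, 8.07, 7.73 and 7.85 on the eGFP arrays. The lowest eGFP array was more than 1 log2 unit above the highest Ubx array. Buffy was lower by -1.52 (SE 0.09, adjusted p = 1.1e-16), a fold of 0.348. At 19 °C the pupal values were 9.08, 9.22, 8.85 and 8.88 with Ubx and 8.81, 8.62, 8.87 and 8.71 with eGFP, a difference of 0.25 (95% interval 0.06 to 0.44, adjusted p = 0.229) with overlapping ranges, as for all 6 genes in these groups (5.37% of all probe sets did not overlap). The change between temperatures was -1.78 (adjusted p = 1.76e-13). With each array left out in turn, the pupal difference at 29 °C ran from -1.58 to -1.46.

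Buffy also differed between the lines in prepupae with the transgene off. At 19 °C it measured 5.41, 5.20, 5.71 and 5.79 with Ubx, against 4.57, 4.52, 4.39 and 4.30 with eGFP. All Ubx arrays lay above all eGFP arrays (7.28% of all probe sets did not overlap), by 1.08 on average (SE 0.09, adjusted p = 1.58e-11), a fold of 2.12. The SD was 0.27 with Ubx and 0.12 with eGFP, against 0.14 pooled over the groups. Under the other settings the adjusted p of this difference reached 0.000494. At 29 °C the values were 3.99, 4.22, 4.07 and 3.90 with Ubx and 3.89, 4.03, 4.01 and 3.97 with eGFP, which differed by 0.07 (95% interval -0.12 to 0.26, adjusted p = 0.74). The change between temperatures was -1.01 (adjusted p = 4.2e-07). The larval differences were 0.10 at 29 °C (adjusted p = 0.823) and 0.24 at 19 °C (adjusted p = 0.393). The larval ranges at 19 °C did not overlap, nor did those of skl (difference -0.14, adjusted p = 0.911), against 6.15% of all probe sets.

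The other Bcl-2 family gene, Debcl, was highest in larvae, with means of 9.08 to 9.35, and had means of 7.67 to 8.43 in prepupae and pupae. By mean percentile within arrays, however, Ubx prepupae at 29 °C (82.52) lay above Ubx and eGFP larvae at 29 °C (82.29 and 82.41). In prepupae at 29 °C Debcl had 8.46, 8.40, 8.37 and 8.49 with Ubx, against 7.92, 8.06, 8.04 and 7.96 with eGFP. The groups did not overlap. Debcl was higher by 0.44 (SE 0.07, adjusted p = 3.92e-06), a fold of 1.35, and stayed called with each array left out in turn (0.41 to 0.46).

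At 19 °C the prepupal lines had 7.56, 7.73, 7.63 and 7.78 with Ubx and 7.60, 7.86, 7.82 and 7.77 with eGFP, a difference of -0.09 (95% interval -0.22 to 0.05, adjusted p = 0.687). Debcl therefore differed between temperatures in its line difference, by 0.52 (adjusted p = 0.00016). In larvae it differed by -0.02 at 29 °C (95% interval -0.15 to 0.12, adjusted p = 0.974), and in pupae by 0.09 (95% interval -0.05 to 0.22, adjusted p = 0.541).

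**Figure D2:**
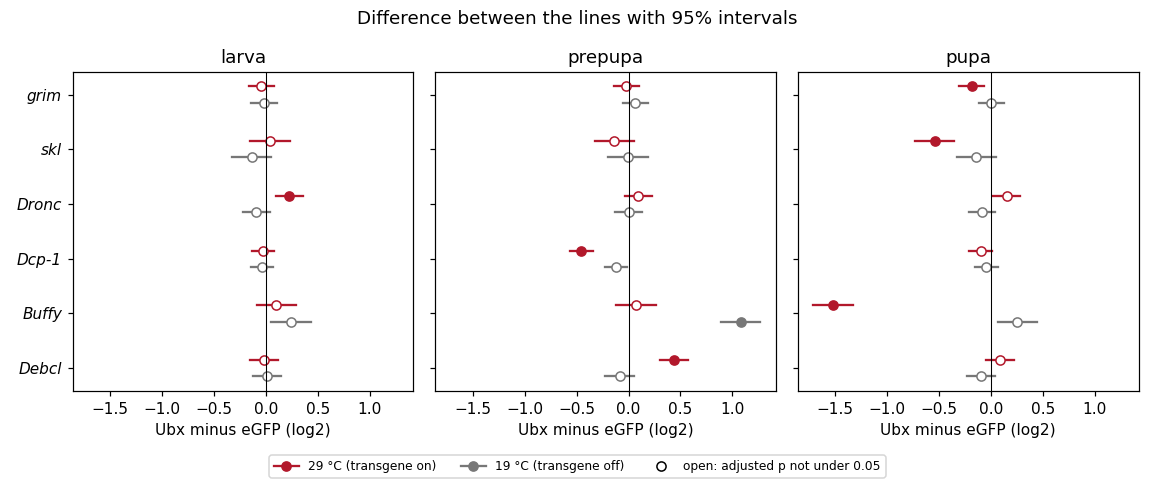
Difference Ubx minus eGFP (log2) for 6 genes at each stage, with 95% intervals from the limma fit, at 29 °C (red) and 19 °C (grey), filled where the adjusted p was under 0.05. Buffy in pupae at 29 °C (-1.52) and in prepupae at 19 °C (1.08) lie farthest from 0.

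The interaction of line with temperature, which tests whether the line difference at 29 °C differs from that at 19 °C, called 3 of 6 genes in prepupae (7.69% of all probe sets), namely Dcp-1, Buffy and Debcl. For Buffy in prepupae the line difference was 0.07 at 29 °C and 1.08 at 19 °C. In pupae the interaction called 1 of 6, Buffy (3.36% of probe sets). It called none in larvae (0.442% of probe sets), where Dronc was the 1 gene at an unadjusted p under 0.05.

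The line difference at 29 °C was also compared between successive stages. From larva to prepupa it changed for 2 of 6 genes (6.31% of all probe sets), by -0.42 for Dcp-1 (adjusted p = 0.000114) and 0.45 for Debcl (adjusted p = 0.00119). From prepupa to pupa it changed for 4 of 6 (9.89% of probe sets): by -1.59 for Buffy (adjusted p = 2.86e-12), 0.35 for Dcp-1 (adjusted p = 0.00115), -0.35 for Debcl (adjusted p = 0.012) and -0.41 for skl (adjusted p = 0.042). The skl call was lost on omission of any 1 of 10 arrays among 16: Ubx replicates 1 and 4 and eGFP replicates 1, 2 and 4 in prepupae, and Ubx replicates 1, 2 and 4 and eGFP replicates 2 and 4 in pupae (adjusted p of 0.055 to 0.132). With the arrays of these groups alone, Dcp-1 and skl had adjusted p = 0.0563 and 0.151. In prepupae at 29 °C, skl means relative to the array medians were -1.62 with Ubx and -1.51 with eGFP. Those of Buffy were -0.69 and -0.78. At such levels a lower value with Ubx may not be seen, which limits this test for both genes.

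Levels of markers of other cell types, and of the wing itself, moved with line in the same arrays. The mean of 12 haemocyte markers was 7.23 to 7.39 on Ubx and 7.0 to 7.10 on eGFP prepupal arrays at 29 °C, and 6.93 to 7.13 on Ubx and 6.69 to 6.97 on eGFP pupal arrays, with 10 of 12 markers above the medians in each of these groups. The mean of 4 fat body markers was 8.34 to 9.08 on Ubx and 9.34 to 9.97 on eGFP pupal arrays at 29 °C, in which Fbp2 was -4.52 lower while the median marker differed by 0.07. The mean of 5 tracheal markers was 7.86 to 7.91 on Ubx and 8.49 to 8.58 on eGFP ones. Over all groups, btl lay -0.67 to 0.98 relative to the array medians, whereas Gasp, serp, verm and pio lay at least 2.93 above them. This mean was therefore not shown to follow tracheal tissue. The mean of 8 markers of the wing, the tissue dissected, was 8.81 to 8.97 on Ubx and 9.10 to 9.22 on eGFP prepupal arrays. On pupal arrays it was 9.26 to 9.35 with Ubx and 9.58 to 9.81 with eGFP. On larval arrays it was 9.20 to 9.25 with Ubx and 9.51 to 9.60 with eGFP, all at 29 °C. Whether these wing genes responded to the transgene or the tissue make-up differed was not tested. On larval arrays at 29 °C, the fat body mean reached 9.36 on 1 eGFP array and 5.90 on the highest Ubx array. Marker levels also differed between the lines at 19 °C. The haemocyte mean was 7.14 to 7.31 on Ubx and 6.95 to 7.04 on eGFP prepupal arrays, the groups in which Buffy was 1.08 higher, and it was 6.81 to 7.05 on Ubx and 6.65 to 6.87 on eGFP pupal arrays. The fat body mean was 6.89 to 8.0 on Ubx and 8.59 to 9.12 on eGFP pupal arrays at 19 °C, where none of the 6 genes was called. The 4 fat body markers are not given singly at 19 °C, so this difference may rest on 1 of them. The mean of 6 myoblast and muscle markers, 1 of them above the medians in each group, was 4.12 to 4.32 on Ubx and 4.34 to 4.43 on eGFP prepupal arrays at 29 °C. The part of other cell types in the differences of Dronc, Dcp-1, Debcl, Buffy (at either temperature), skl and grim was not tested. In whole wings, fewer cells of a type and less RNA per cell cannot be told apart.

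The 3 stages were compared in the eGFP line, where no Ubx transgene is present. Larval samples were whole discs and later ones wings, and markers of other cell types rose or fell between stages. The mean of 5 notum and thorax body wall markers was 8.45 in larvae and 5.33 in prepupae at 29 °C, and 8.82 and 5.22 at 19 °C. That of 12 haemocyte markers was 6.0 and 7.04 at 29 °C. That of 4 fat body markers was 6.73 in prepupae and 9.63 in pupae at 29 °C. The part of tissue make-up in the stage differences was not tested. The caspase genes and Debcl fell in prepupae relative to larvae at both temperatures. Then all 6 genes were higher in pupae than in prepupae, with the largest differences for Buffy and skl. All probe sets together had a median change between stages of -0.26 at 19 °C and 0.0054 at 29 °C (prepupa minus larva), and of -0.32 at 19 °C and -0.26 at 29 °C (pupa minus prepupa).

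In prepupae against larvae, 3 of 6 genes were called at 29 °C (72.3% of all probe sets called, 37.6% lower) and 4 of 6 at 19 °C (75.7% called, 59.3% lower), all lower. Dcp-1 fell by 1.83 at 29 °C (adjusted p = 1.21e-30) and by 2.62 at 19 °C (adjusted p = 1.07e-36). The fall of Debcl was -1.10 at 29 °C and -1.58 at 19 °C, and that of Dronc -0.64 at 29 °C and -1.36 at 19 °C. With quantile normalisation across the 48 arrays these values were smaller, at 29 °C -1.17 for Dcp-1, -0.38 for Debcl and -0.05 for Dronc (adjusted p = 0.53), and at 19 °C -1.52 for Dcp-1, -0.48 for Debcl and -0.46 for Dronc. The small fall of grim at 19 °C, -0.18 (adjusted p = 0.00816), was 0.05 with that normalisation.

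In pupae against prepupae all 6 genes were higher at 29 °C (85.2% of all probe sets called, 26.7% higher) and at 19 °C (88.1% called, 24.1% higher). Buffy rose by 3.92 at 29 °C (SE 0.09, adjusted p = 1.36e-33), a fold of 15.1, and by 4.31 at 19 °C (adjusted p = 3.14e-35). The rise of skl was 2.76 at 29 °C (SE 0.09, adjusted p = 8.55e-28), a fold of 6.76, and 3.14 at 19 °C. Dcp-1 rose by 1.43 at 29 °C and 1.86 at 19 °C, and Dronc by 0.75 and 1.02.

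The remaining rises were small. That of grim was 0.63 at 29 °C and 0.51 at 19 °C, at values below the array medians, and with centring 1.02 at 29 °C and 0.93 at 19 °C. For Debcl it was 0.28 at 29 °C and 0.15 at 19 °C (adjusted p = 0.0332). The 19 °C call of Debcl ended on omission of eGFP prepupal replicate 1 (0.10, adjusted p = 0.185) or eGFP pupal replicate 2, 3 or 4 (0.0732, 0.146 and 0.0541). With quantile normalisation across the 48 arrays neither rise of Debcl was called (0.07 at 29 °C and 0.02 at 19 °C), and with centring they were 0.66 and 0.56.

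**Figure D3:**
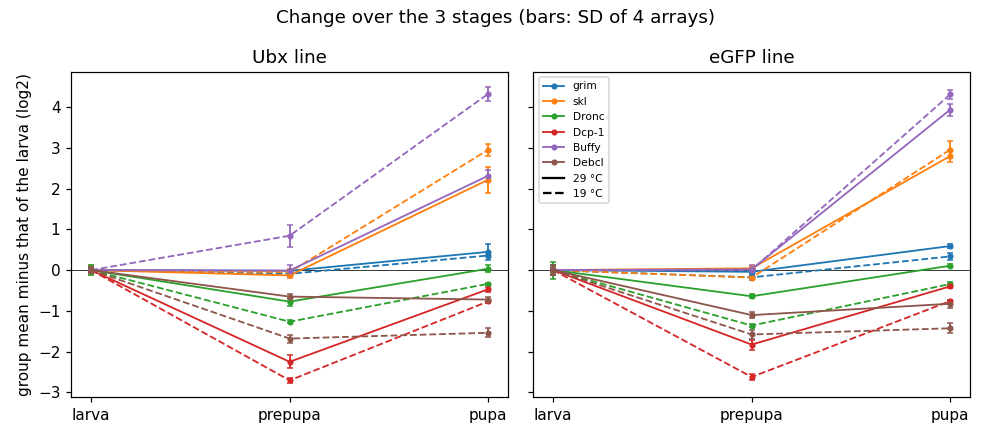
Change of each group mean from its larval mean (log2, bars are SD of 4 arrays) over larva, prepupa and pupa in the Ubx line (left) and the eGFP line (right), at 29 °C (solid) and 19 °C (dashed). The pupal value of Buffy at 29 °C lies below its 19 °C value in both lines, with a wider gap in the Ubx line.

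Animals of the eGFP line kept at 19 °C and moved to 29 °C differed in temperature, in whether the eGFP transgene was on and in array set. Prepupae and pupae also differed in time after puparium formation. These effects cannot be told apart. In larvae all 6 genes were lower at 29 °C, by -0.20 to -0.49, where 63.9% of all probe sets were called, 59.5% lower, and the median of all was -0.21. With each array centred on its median, 2 genes, Dronc and Buffy, kept a call there. The skl call (adjusted p = 0.0495) was lost on omission of any array but eGFP replicate 2 at 29 °C (adjusted p of 0.0512 to 0.154).

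In prepupae 4 of 6 genes were called between the temperatures in the eGFP line (55.7% of all probe sets, 38.1% higher and 17.6% lower). Dcp-1 was 0.59 higher, Dronc 0.28 higher and Debcl 0.23 higher at 29 °C, and Buffy was -0.47 lower, against a median of 0.09 over all probe sets. With quantile normalisation across the 48 arrays Debcl differed by 0.04 (adjusted p = 0.65), Dcp-1 by 0.36 and Dronc by 0.17 (adjusted p = 0.0487), and with centring Debcl by 0.11 (not called) and Dronc by 0.16. In pupae 4 of 6 were called (51.7%, 46% higher and 5.62% lower). Buffy was lower by -0.86 and skl by -0.37, while Debcl was 0.36 higher and Dcp-1 0.16 higher, against a median of 0.15. Quantile normalisation across arrays gave -0.76 for skl, 0.09 for Debcl (not called) and -0.10 for Dcp-1, while centring gave 0.21 for Debcl and 0.002 for Dcp-1. The Dcp-1 call was also lost without eGFP replicate 4 at 29 °C (0.13, adjusted p = 0.0541).

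Other genes of cell death and of its removal were read from 8 lists, in the Ubx against eGFP comparison at 29 °C. Of 105 genes measured, 6 were called in larvae (5.71%, against 2.77% of all probe sets). In prepupae 32 were called (30.5%, against 14.2%), 26 higher and 6 lower, beside 8.03% of all probe sets higher and 6.21% lower. In pupae 14 were called (13.3%, against 8.89%). The probe set with the highest mean stood for each gene, and the lists were chosen with earlier results known, so these shares are a description. The shares over all probe sets include dim ones and 4720 without a symbol, so the sets compared are unlike. No share among probe sets of similar level was computed.

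**Figure D4:**
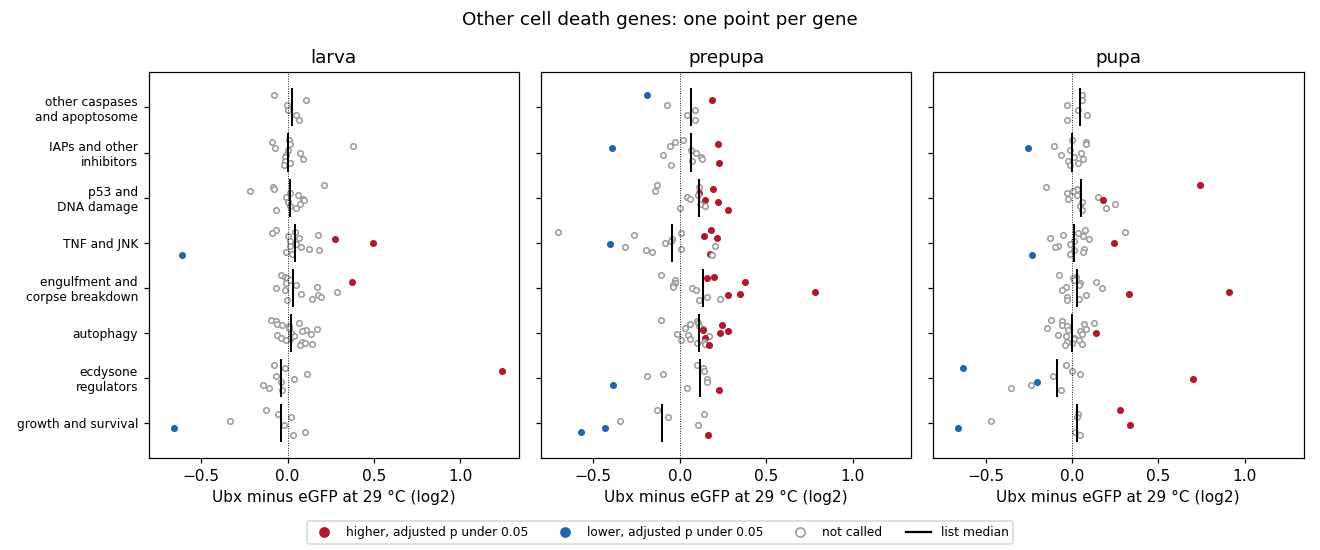
Difference Ubx minus eGFP at 29 °C (log2) for each gene of 8 cell death lists, by stage, with calls higher in red, lower in blue, uncalled genes open and the list median as a bar. The engulfment and autophagy medians lie at 0.13 and 0.11 in prepupae and at 0.03 and -0.0019 in pupae.

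Of 6 other caspase and apoptosome genes, none was called in larvae or pupae and 2 in prepupae (list median 0.06). Dark, the adaptor on which Dronc is activated, was 0.19 higher (adjusted p = 0.00184), but its other probe set measured -0.26 (not called) and the mean of both -0.04. The caspase gene Damm was -0.19 lower (adjusted p = 0.0379), a call that ended on omission of any 1 of 5 arrays among 8 (adjusted p up to 0.151). Damm had low values, with a mean of 3.37 over all arrays, below the lowest array median of 4.19.

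Among 13 inhibitors of apoptosis and related genes, 2 were higher and 1 lower in prepupae (median 0.06). Diap2, an inhibitor of apoptosis protein gene, was 9.80 ± 0.04 with Ubx and 9.57 ± 0.06 with eGFP (SD, n = 4), higher by 0.22 (adjusted p = 0.00172). The ubiquitin pathway gene morgue, which promotes turnover of the inhibitor protein Diap1, was higher by 0.23 (adjusted p = 0.00378), and the ERK phosphatase gene Mkp3 was lower by -0.39 (adjusted p = 0.000174). In pupae Mkp3 was lower by -0.25 (adjusted p = 0.0269), which ended on omission of replicate 1 or 3 of either line, and no gene of the list was called in larvae.

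Of 14 p53 and DNA damage genes, 5 were higher in prepupae (median 0.11), and 1 of them, tefu, kept its call with each array left out. The gene tefu, for the ATM kinase, was 7.48 ± 0.14 with Ubx and 7.20 ± 0.05 with eGFP (SD, n = 4), a difference of 0.28 (adjusted p = 0.00454). The DNA repair genes nbs, mre11 and Ku80 differed by 0.22, 0.15 and 0.19, with calls lost without eGFP replicate 4 for nbs (adjusted p = 0.0774), and without 5 and 6 of the 8 arrays for mre11 and Ku80 (adjusted p up to 0.121 and 0.195). The dynein light chain gene ctp entered the list through a synonym, and its call at 0.11 ended on omission of Ubx replicate 1 (adjusted p = 0.0512). In pupae 2 were higher, Corp by 0.74 (adjusted p = 0.00376), which encodes a regulator of p53, and mre11 by 0.18, lost without Ubx replicate 4. With pupal arrays alone Corp had an adjusted p = 0.105, and its values ranged from 6.85 to 7.80 with Ubx and from 6.02 to 6.93 with eGFP.

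In the TNF and JNK list of 17 genes, 3 were called in larvae, 5 in prepupae and 2 in pupae. In larvae the TNF gene egr was 7.07 ± 0.08 with Ubx and 6.57 ± 0.13 with eGFP (SD, n = 4), higher by 0.49 (adjusted p = 8.15e-07), with its other probe set at 0.31 and not called. At 19 °C egr was also higher in larvae, by 0.31 (adjusted p = 0.00383), and the change between temperatures was not called (adjusted p = 0.891). The TNF receptor gene wgn was 9.04 ± 0.10 with Ubx and 9.65 ± 0.14 with eGFP (SD, n = 4), lower by -0.61 (adjusted p = 8.3e-08), against 0.0068 at 19 °C, and its change between temperatures was called (-0.62, adjusted p = 0.000444). The other larval call, of the adaptor gene Traf4 (0.27), ended on omission of Ubx replicate 2 or eGFP replicate 3 (0.0553 and 0.0636 as adjusted p). In prepupae the 2 probe sets of Traf4 disagreed, at -0.05 (not called) and -1.30 (adjusted p = 2.26e-10).

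The other TNF receptor gene, grnd, was lower in prepupae, at 9.45 ± 0.08 with Ubx and 9.86 ± 0.13 with eGFP (SD, n = 4), a difference of -0.41 (adjusted p = 2.76e-05). The kinase pathway genes Tab2, Ask1, Mkk4 and slpr were called 0.14 to 0.22 higher there, and each call was lost without at least 1 array. For Tab2 these were Ubx replicate 2 and eGFP replicate 4, for Ask1 Ubx replicate 2, for Mkk4 4 of 8 arrays and for slpr 6 of 8 arrays, with adjusted p up to 0.2. The list medians were 0.04 in larvae, -0.05 in prepupae and 0.01 in pupae. In pupae egr was higher by 0.24 and wgn lower by -0.23, with calls lost without 2 and 6 of the 8 arrays.

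Of 16 engulfment and corpse breakdown genes, 6 were higher in prepupae and none lower (median 0.13). Shark, a tyrosine kinase gene of the engulfment receptor Draper, was 9.41 ± 0.07 with Ubx and 9.12 ± 0.08 with eGFP (SD, n = 4), higher by 0.28 (adjusted p = 0.000144). NimC1, a phagocytosis receptor gene of haemocytes, was 7.05 ± 0.04 with Ubx and 6.27 ± 0.24 with eGFP (SD, n = 4), higher by 0.78 (adjusted p = 0.000217). Its relative NimC4 was higher by 0.35 (adjusted p = 0.00806), Drep1, of the DNA fragmentation factor family, by 0.38 (adjusted p = 0.00262) and Acn by 0.20 (adjusted p = 0.000916), with the other probe set of Acn at 0.10 and not called and an adjusted p = 0.0516 for Acn with the prepupal 29 °C arrays alone. The call of Ced-12, 0.16, was lost on omission of any 1 of 5 arrays (adjusted p up to 0.249).

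NimC1 and NimC4 are also among the 12 haemocyte markers given above, of which 4 were higher in prepupae. At 19 °C NimC1 was higher in the Ubx line too, by 0.58 in prepupae (adjusted p = 0.02) and 0.89 in pupae (adjusted p = 0.000204), and its change between temperatures was not called in either (adjusted p = 0.724 and 0.985). In pupae at 29 °C NimC1 was higher by 0.91 (adjusted p = 3.02e-05), and NimC4 by 0.33, a call that ended on omission of Ubx replicate 1 or 4 or eGFP replicate 2. In larvae Drep1 was the 1 gene called, 0.37 higher (adjusted p = 0.0117) against 0.29 at 19 °C (adjusted p = 0.139), and with quantile normalisation across the 48 arrays it had an adjusted p = 0.0967.

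The autophagy list, 21 genes for the machinery that forms autophagosomes, had 6 genes higher and none lower in prepupae (median 0.11). Of these, Atg2, Atg3, Atg13 and ref(2)P kept their calls with each array left out, at 0.28, 0.23, 0.24 and 0.17, while ref(2)P lost it with the prepupal 29 °C arrays alone (adjusted p = 0.0786). Atg3, an enzyme gene of Atg8 lipidation, was 8.76 ± 0.02 with Ubx and 8.53 ± 0.08 with eGFP (SD, n = 4, adjusted p = 0.000125). The calls of Atg7 and Atg18a, at 0.14 and 0.13, were lost without 3 and 4 of the 8 arrays (adjusted p up to 0.152 and 0.162). No autophagy gene was called in larvae, and in pupae Atg3 alone was, at 0.14, lost without 6 of 8 arrays.

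Among 10 ecdysone regulators of developmental cell death, the receptor partner gene usp was higher by 0.22 (adjusted p = 0.000442) and the transcription factor gene foxo lower by -0.39 (adjusted p = 0.00755) in prepupae. In pupae Eip93F, the ecdysone-induced gene needed for larval salivary gland death, was 10.3 ± 0.17 with Ubx and 10.9 ± 0.30 with eGFP (SD, n = 4), lower by -0.63 (adjusted p = 6.96e-05), with its other probe set at -0.11 and not called. Its change between temperatures was -0.63 (adjusted p = 0.0143). The zinc finger gene br was higher by 0.70 in pupae on the probe set with the highest mean (adjusted p = 0.00111), with its other 4 probe sets between -0.06 and 0.14 and the mean of all not called (adjusted p = 0.216). In prepupae 2 other probe sets of br were called, at 1.44 and 0.41, while that one measured 0.16. The call of chm, -0.20, was lost without 5 of 8 arrays, and that of the larval nuclear receptor gene Hr3, 1.24, without 6 of 8 (adjusted p up to 0.217).

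In the 8 growth and survival genes, the planar polarity and Hippo pathway gene fj was lower at all 3 stages, by -0.66 in larvae (adjusted p = 2.74e-09), -0.43 in prepupae (adjusted p = 5.47e-06) and -0.66 in pupae (adjusted p = 6.79e-10), against -0.07, 0.05 and -0.05 at 19 °C. In prepupae the Hippo pathway gene kibra was lower by -0.57 (adjusted p = 6.96e-06) and yki, the growth-promoting coactivator, was higher by 0.16 (adjusted p = 0.00298, and 0.106 with the prepupal 29 °C arrays alone). The list medians were -0.04, -0.10 and 0.03 over the stages. In pupae the calls of CycE (0.28) and ex (0.33) were lost without 4 of 8 arrays each.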

How the data were processed

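RNA of wing discs and wings had been hybridised to 48 Affymetrix Drosophila Genome 2.0 arrays, from 2 µg of RNA per sample per the labels' protocols. The deposited values, read as log2 values, were made by the authors with RMA, per the submitters' processing notes, which name no version. The base was taken from their range, 2.37 to 14.6. No detection calls were used. Array controls (183 of 18952 probe sets) were dropped. Names came from the platform annotation: 13647 of 18769 probe sets had 1 symbol, 402 several and 4720 none.

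A mean per group was fitted over all 48 arrays with limma 3.58.1 (lmFit, eBayes, in R 4.3.3), with 36 residual degrees of freedom and 5.16 from the prior. All tests are two-sided, with Benjamini-Hochberg adjustment over 18769 probe sets. The number of arrays limits the precision. A gene with several probe sets was read through the one with the highest mean. By rule, the text names the members and, per list and stage at 29 °C, up to 3 called genes with the lowest adjusted p. Other called genes of the lists (mre11 and Ku80, Mkk4 and slpr, Drep1, NimC4 and Ced-12, Atg13, Atg7 and Atg18a, all in prepupae) and the probe sets of Traf4 and br in prepupae were named after their values were seen. The members, lists and naming rule were chosen with earlier results of these data known. A rule naming genes with patterns like rpr, hid and Diap1 could not be applied, and promoter motifs were not searched. Alternatives were the arrays of the compared groups alone, quantile normalisation over all arrays, centring, a filter on dim probe sets, the mean of probe sets, replicate blocks, another prior variance and leaving out each array. Simulated data had normal noise with the pooled SD of each probe set in every group. There, 1.5-fold changes were called for 97%, 94% and 97% of 100 changed probe sets among 18769 in the larval, prepupal and pupal comparison at 29 °C. For 1.25-fold changes, in another 100, the shares were 66%, 69% and 69%. Spreads that differ between groups, as in the data, were not simulated. Same-number replicates of the lines had correlations of deviations from -0.145 to 0.361, against -0.268 to 0.269 for other numbers. At most 2 of 4 in any set were over 0.1, so the numbers were not taken to pair samples. Same-number values were all above 0 in larvae at 29 °C (0.0227 to 0.134), and the 0.361 was in pupae at 29 °C. Some pairing may therefore be present in these sets. Figures were drawn with matplotlib 3.10.9 in Python 3.11.15 with numpy 2.4.6 and pandas 2.3.3.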

Additional observations from a re-analysis of the deposited data

Results flagged for a closer look

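Of 72 groups of 4 arrays (6 genes in 12 groups), 3 held 1 array far from the other 3, where chance gives about 1 in 20 groups. These were skl in eGFP prepupae at 29 °C, where replicate 1 measured 3.16 and the others 3.27 to 3.29, skl in Ubx pupae at 19 °C, where replicate 2 measured 6.45 and the others 6.14 to 6.18, and Dcp-1 in eGFP pupae at 29 °C, where replicate 4 measured 9.17 and the others 9.07 to 9.08.

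Of 30 tests of whether the line difference itself changed, 10 were called. Over all probe sets, 0.442% to 9.89% were called in these comparisons. The tests share groups of arrays, so they are not independent. Between 29 °C and 19 °C the line difference changed in prepupae by -0.33 for Dcp-1, -1.01 for Buffy and 0.52 for Debcl, and in pupae by -1.78 for Buffy. At 29 °C it changed in prepupae relative to larvae by -0.42 for Dcp-1 and 0.45 for Debcl. In pupae relative to prepupae it changed by -0.41 for skl, 0.35 for Dcp-1, -1.59 for Buffy and -0.35 for Debcl.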

How the results depend on the processing

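Of 1896 values of the 6 genes under alternatives, 1824 kept their side of the threshold, 57 lost a call, 7 gained one and 8, called in the fit reported or under the alternative, turned round. Of the 1824, 47 were uncalled values that changed sign. With only the arrays of the compared groups, the genes called at 29 °C numbered 0 in larvae and 1 in pupae, those with a changed line difference from prepupa to pupa 2, and all pupal probe sets called 930 in place of 1669. With quantile normalisation over all arrays or with centring, larval temperature calls numbered 2, and with centring the prepupa against larva calls at 29 °C numbered 6. Quantile normalisation turned round the larval temperature differences of grim (0.0523), skl (0.0373) and Dcp-1 (0.0149), the pupal ones of Dronc (-0.20, adjusted p = 0.025) and Dcp-1 (-0.10), and the prepupa against larva difference of grim at 19 °C (0.0523). Centring turned round those of skl (-0.24) and Buffy (-0.26) at 29 °C. The mean of probe sets turned Dark to -0.0385. The cause was not tested beyond what each setting changes by construction.

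Leaving out 1 array at a time gave 0 to 1 genes called in larvae, 2 to 2 in prepupae and 2 to 3 in pupae at 29 °C, 0 to 1 in the larval and 1 to 2 in the pupal interaction, and 3 to 4 for the line difference from prepupa to pupa. All probe sets called then numbered 406 to 550, 2220 to 2690 and 1294 to 1812.

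The replicate number as a block over all arrays ended 1 call, that of skl between temperatures in larvae (adjusted p = 0.0504). A block within each stage and temperature, chosen after seeing the data, left 0 genes called in larvae at 29 °C (Dronc, adjusted p = 0.0707) and ended the pupal call of grim (adjusted p = 0.107). The filter on dim probe sets kept 11430 probe sets and 5 of the 6 genes, leaving out grim. Of 831 values of the 52 called list genes, 687 were kept, 143 lost their call and 1 turned round. No measure of signal over background was used, so low values such as those of grim and Damm, and of skl and Buffy before the pupa, may be limited by it.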
